A study of Mus musculus with 115 samples.

Results

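A set of 6 genes of the array, among 18120 distinct symbols, were followed through inguinal adipose tissue and liver. They were chosen by symbol because, in earlier results of these data, estradiol raised them in fat of mice that develop ovaries and not in fat of mice that develop testes. The array lists them as Rpel1, 2310061G07Rik, 1700018O18Rik, 1700127F16Rik, 1810054O13Rik and 2310002J15Rik, which correspond to the current symbols Phactr1, Lypd3, Mfsd2a, Wfdc3, Tmem86a and Cysrt1. Phactr1 has 3 probes, called A, B and C here, and each of the other genes has 1 probe, so that 8 probes carry the 6 genes. The adipose values of estradiol and blank arrays chose these genes, and those values are therefore given as a description without a test.

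The mice were of the FCG model, which separates gonad type from sex chromosomes, on a C57BL/6J background, in which every Y chromosome lacks Sry, the testis-determining gene, and an Sry transgene sits on an autosome. XX and XY- mice carry no Sry and develop ovaries, while XXSry and XY-Sry mice carry the transgene and develop testes. All animals were gonadectomised at 75 days of age and received a blank capsule (B), a testosterone capsule of 5 mM (T) or an estradiol capsule of 50 µg (E), with tissue collected 3 weeks later. A control mouse was therefore also gonadectomised, and between groups with and without Sry the earlier gonad and the transgene cannot be told apart, while XX against XY- compares sex chromosomes. Of 115 arrays, 55 were adipose and 60 liver, with 12 groups in each tissue, 5 arrays in each liver group and 3 to 5 in each adipose group (3 in XX B; 4 in XXSry E, in XX T and in XY-Sry B). Each array is taken as 1 animal, which the labels do not state, so p-values measure the spread between these arrays. The labels of 1 adipose array, replicate 1 of XX E, name both estradiol and testosterone; it was kept as estradiol.

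Phactr1 encodes a regulator of protein phosphatase 1 that binds actin through RPEL motifs. Lypd3 encodes a GPI-anchored surface protein of the Ly6/uPAR family that is known from stratified epithelium. Mfsd2a is a transporter of lysophosphatidylcholine that carries long-chain fatty acids such as docosahexaenoic acid, Tmem86a is a lysoplasmalogenase, Wfdc3 belongs to the WAP four-disulfide core family of secreted proteins, and Cysrt1 is a cysteine-rich protein. Estradiol acts through nuclear estrogen receptors that bind response elements in DNA or act through other factors there. The mouse inguinal fat pad holds the mammary gland, so its RNA can come from mammary epithelium as well as from adipocytes, and a change in bulk tissue cannot tell a change in the number of cells of a type from a change in RNA per cell.

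The upstream sequences of the 2 genes whose estradiol arrays stood fully apart in fat are shown first, because they are the most distinct members. The sequences are the 250 bases before the annotated start from RefSeq (GRCm38.p6), which has 3 starts for Phactr1, and all 6 genes were matched to 8 start windows in all. Capitals mark the estrogen response element half-site GGTCA, read on either strand, so that TGACC is the same site on the other strand.

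Phactr1 start 1 (chr13:42680549-42680798, plus strand): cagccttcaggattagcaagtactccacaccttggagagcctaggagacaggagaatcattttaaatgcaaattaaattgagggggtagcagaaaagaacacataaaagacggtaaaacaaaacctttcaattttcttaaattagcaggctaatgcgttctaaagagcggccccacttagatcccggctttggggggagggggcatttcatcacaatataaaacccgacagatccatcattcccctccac
Phactr1 start 2 (chr13:42865997-42866246, plus strand): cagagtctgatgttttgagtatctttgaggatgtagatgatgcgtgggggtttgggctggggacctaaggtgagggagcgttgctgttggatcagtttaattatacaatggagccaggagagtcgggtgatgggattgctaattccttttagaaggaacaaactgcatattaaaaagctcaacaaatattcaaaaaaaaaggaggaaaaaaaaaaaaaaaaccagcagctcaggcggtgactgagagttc
Phactr1 start 3 (chr13:43122589-43122838, plus strand): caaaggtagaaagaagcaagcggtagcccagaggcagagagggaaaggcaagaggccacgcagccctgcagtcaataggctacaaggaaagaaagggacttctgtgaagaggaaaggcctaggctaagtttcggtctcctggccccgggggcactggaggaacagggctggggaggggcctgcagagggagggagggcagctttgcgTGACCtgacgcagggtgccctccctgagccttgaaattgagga
Lypd3 (chr7:24636320-24636569, plus strand): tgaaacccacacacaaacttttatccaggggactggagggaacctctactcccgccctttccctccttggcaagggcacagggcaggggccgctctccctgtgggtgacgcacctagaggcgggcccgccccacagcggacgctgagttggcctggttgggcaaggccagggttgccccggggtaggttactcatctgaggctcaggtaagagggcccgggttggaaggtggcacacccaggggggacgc

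The half-site was found once in the third Phactr1 window and not in the other Phactr1 windows or that of Lypd3. Over windows from 250 bases before to 50 after the start, it was present in 4 of the 8 member windows and in 40.5% of all 32851 windows. The other 3 were those of Mfsd2a, Wfdc3 and Cysrt1. The full element, GGTCA and TGACC with any 3 bases between them, was in 0 of the 8 windows and in 0.07% of all windows. The TATA box TATAAA was in 1 member window, the first of Phactr1, and in 13.6% of all windows, and the GC box GGGCGG in 2, those of Lypd3 and Tmem86a, and in 35.7% of all. A match is a description of the letters, and no binding was measured.

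Values below are log2 normalised intensities, and detected means a detection p under 0.01. Arrays differed in median signal (130 to 230 in adipose) and in the share of probes detected (40.3% to 49.0%), before normalisation. A value of the offset, 16, was added before the log, so differences of dim probes are understated. Of the 8 member probes, 7 were detected in enough adipose arrays to be tested (14636 probes in all) and 2 in liver (11317 probes), while Phactr1 probe C was detected in 0 of 55 adipose arrays.

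Phactr1 probe A was read above background in 10 of 10 estradiol arrays of XX and XY- fat and in 0 of 45 others. The 5 XX E arrays read 6.74, 7.08, 6.74, 6.84 and 6.27, and the 5 XY- E arrays 6.99, 6.95, 6.59, 6.06 and 6.87. The other 45 arrays lay between 4.45 and 5.23 with a median of 4.72. No array of the other groups reached the lowest of the 10 estradiol arrays, 6.06, and the highest, XY-Sry E replicate 1, read 5.23. In the deposited intensities the 10 arrays lay between 195 and 341 and the others between 113 and 165. The group means were 6.73 ± 0.29 (SD, n = 5) in XX E and 6.69 ± 0.39 (n = 5) in XY- E, against 4.65 to 4.83 in the other 10 groups. Since those were below background, the level was at least 1.56-fold higher in XX E than in XX B and at least 1.61-fold higher in XY- E than in XY- B, and against the testosterone groups at least 1.62-fold and 1.63-fold. The bound takes, for each array of the dim group, the larger of its value and the lowest signal among detected probes.

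The other Phactr1 probes did not share this pattern. Probe B was detected in 52 of 55 adipose arrays, and its highest means were again XY- E with 8.02 ± 0.23 (SD, n = 5) and XX E with 7.81 ± 0.31. XXSry E followed with 7.32 ± 0.32 (n = 4), XX B with 7.17 ± 0.35 (n = 3) and XY-Sry E with 7.14 ± 0.25, and the lowest was XY- B with 6.49 ± 0.35. Of the 45 other arrays 8 were above the lowest estradiol array of XX and XY- fat, 7.29, so the groups overlapped. Its fitted difference, estradiol minus blank, was 1.08 ± 0.20 (SE) without Sry and 0.46 ± 0.19 with Sry. Probe C read between 4.71 and 5.74 in all adipose arrays, with no group standing apart. The files do not say which transcripts the 3 probes target, so the contrast between probes cannot be assigned to an isoform here.

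**Figure D1:**
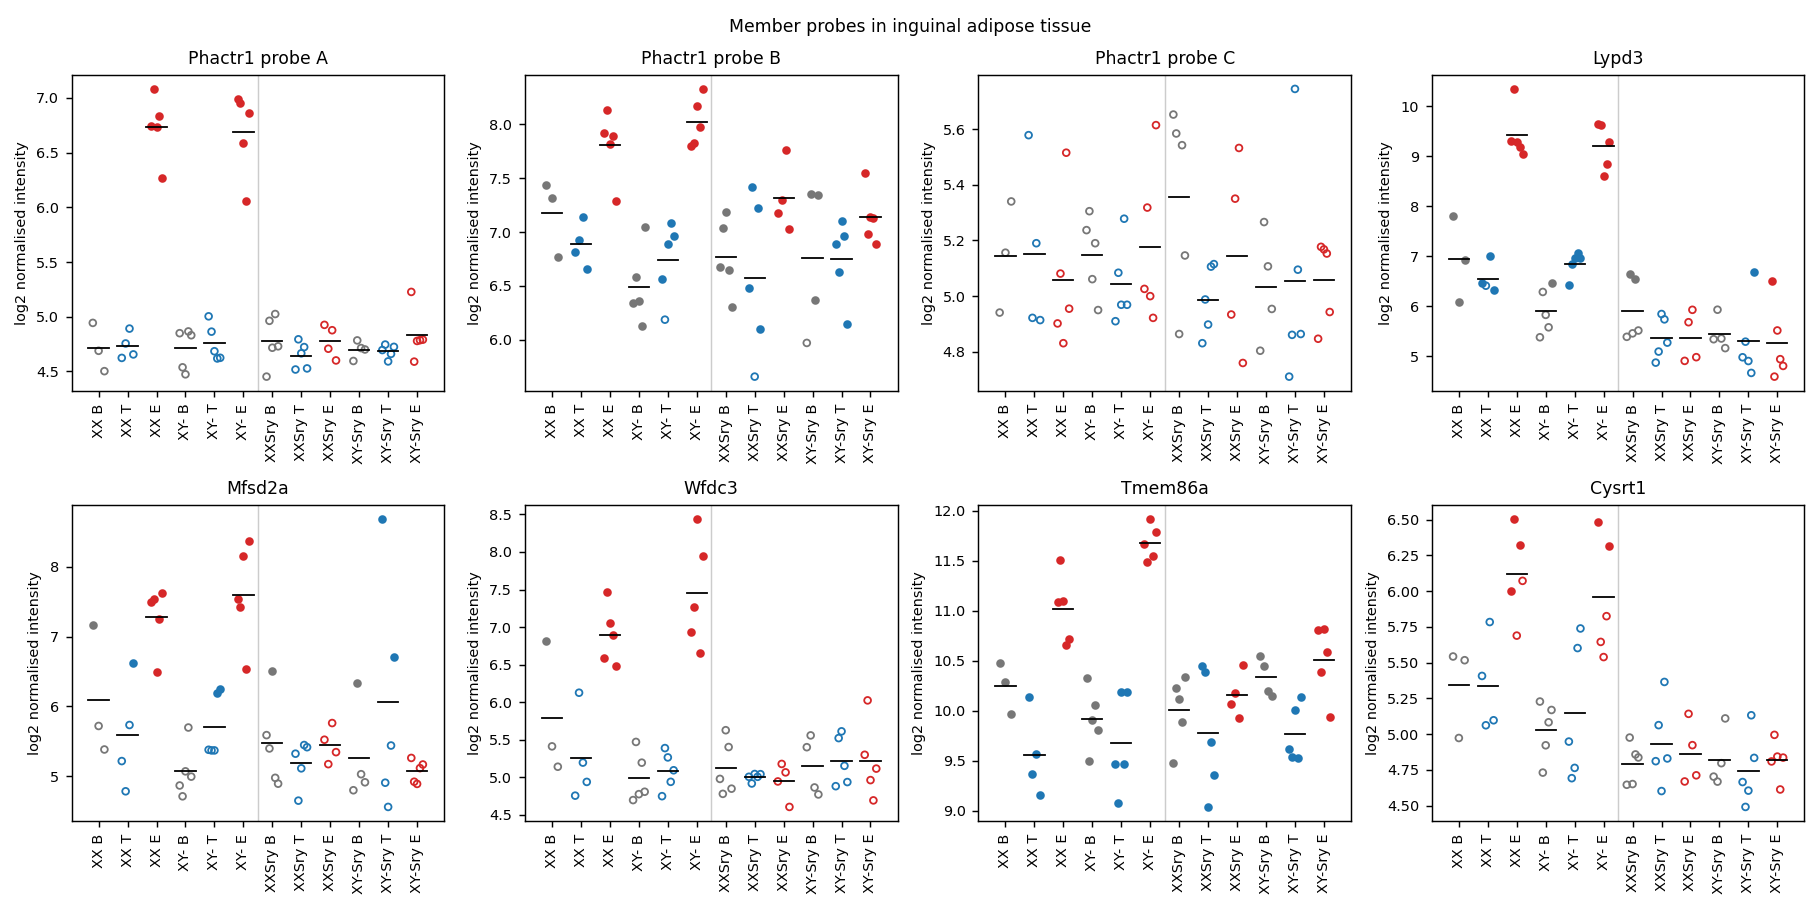
Log2 normalised intensity of the 8 member probes in each adipose array (y axis) by group (x axis), with group means as black bars, filled points detected and open points not detected. Grey is blank, blue testosterone and red estradiol, and groups without Sry are left of the grey line. Phactr1 probe A and Lypd3 in XX E and XY- E stand clear of all other arrays, while Phactr1 probe C is not detected in any group.

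Lypd3 had the largest estradiol difference of the 6 genes. XX E arrays read 9.31, 10.35, 9.28, 9.20 and 9.04, and XY- E arrays 9.64, 9.63, 8.60, 8.85 and 9.29. All 10 lay above all 45 others, the highest of which was XX B replicate 1 with 7.81. The means were 9.44 ± 0.52 (SD, n = 5) and 9.20 ± 0.47, followed by XX B with 6.94 ± 0.86 (n = 3), XY- T with 6.86 ± 0.25 and XX T with 6.55 ± 0.31 (n = 4), which overlap. XY- B and XXSry B were both at 5.91, and the other groups with Sry were between 5.28 and 5.45. It was detected in 16 of the 45 other arrays. Its fitted difference was 2.89 ± 0.26 (SE) without Sry and -0.35 ± 0.26 with Sry. Of all tested probes, 31 (0.212%) had every one of the 10 arrays above every other, and 2 of the 7 tested member probes, probe A and Lypd3, were among them. That count uses the arrays that chose the genes and is given as a description.

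Wfdc3 was detected in 10 of 10 estradiol arrays of XX and XY- fat and in 1 of the 45 others, XX B replicate 1. XX E arrays read 6.59, 7.47, 7.06, 6.90 and 6.48, and XY- E arrays 6.93, 7.27, 8.44, 6.65 and 7.95. XX B replicate 1, at 6.82, was the only other array above the lowest of these, 6.48. The means were 6.90 ± 0.39 (SD, n = 5) and 7.45 ± 0.74, against 5.79 ± 0.90 (n = 3) in XX B and 4.95 to 5.26 in the other 9 groups. In XY- fat, where no blank array was detected, the level was at least 2.72-fold higher with estradiol. The same XX B array was the highest of its group for Mfsd2a (7.16) and Lypd3 (7.81) as well.

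Mfsd2a was detected in all 10 of these arrays and in 8 of the 45 others. XX E arrays read 7.49, 7.54, 6.49, 7.25 and 7.63, and XY- E arrays 7.53, 7.42, 8.15, 6.53 and 8.36. The means were 7.28 ± 0.46 (SD, n = 5) and 7.60 ± 0.72, with XX B at 6.09 ± 0.95 (n = 3) and XY-Sry T at 6.06 ± 1.68 next and the other groups between 5.07 and 5.71. The level was at least 3.02-fold higher in XY- E than in XY- B. The groups overlapped, with 5 other arrays above 6.49. The highest adipose array of all was XY-Sry T replicate 1 at 8.68, and on the same array the mean of 4 liver genes (Alb, Apoa2, Ttr, Apoc3) was 13.77 against 6.13 to 6.70 on the other arrays of that group. Mfsd2a is well expressed in liver, at 8.16 to 12.02 on that tissue's own scale, and the part of liver RNA in the value was not tested. The second highest of that group, replicate 5 at 6.71, had a liver score of 6.17.

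Tmem86a was detected in all 55 adipose arrays. XX E arrays read 11.09, 11.50, 11.10, 10.65 and 10.72, and XY- E arrays 11.66, 11.49, 11.91, 11.54 and 11.79. The means were 11.01 ± 0.34 (SD, n = 5) and 11.68 ± 0.17, followed by XY-Sry E with 10.51 ± 0.37, XY-Sry B with 10.33 ± 0.19 (n = 4) and XX B with 10.24 ± 0.26 (n = 3), whose ranges overlap, and the lowest group was XX T with 9.56 ± 0.42 (n = 4). Only 2 of the 45 other arrays exceeded the lowest of the 10, at up to 10.82. Cysrt1 was detected in few arrays. XX E arrays read 6.00, 6.50, 5.69, 6.32 and 6.07, and XY- E arrays 6.48, 5.64, 5.54, 5.82 and 6.32. It was detected in 3 arrays of XX E, 2 of XY- E and 0 of the 45 others, and 4 of the others exceeded the lowest of these 10, 5.54. Its means were 6.12 ± 0.31 and 5.96 ± 0.42, against 4.75 to 5.34 elsewhere. The bound for XX E over XX B came to 1.02-fold, but it uses XX E values that were not all above background, so it is not firm. For XY- E no bound was reached over XY- B or XY- T.

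The fitted estradiol differences without Sry were 2.0 ± 0.11 (SE) for Phactr1 probe A, 1.86 ± 0.35 for Mfsd2a, 1.78 ± 0.22 for Wfdc3, 1.26 ± 0.18 for Tmem86a and 0.85 ± 0.14 for Cysrt1. The blank arrays were mostly not above background for all of these but Tmem86a, so for the other 4 the sizes depend on the background correction, and without it they were 0.76, 0.80, 0.72 and 0.28 for Phactr1 probe A, Mfsd2a, Wfdc3 and Cysrt1. The fold bounds given above were computed on the background-corrected values, so they depend on that correction too, and none was computed without it. That of Cysrt1 is not firm. With Sry the differences of the 5 probes were 0.07 ± 0.11, -0.11 ± 0.34, -0.05 ± 0.21, 0.16 ± 0.17 and 0.03 ± 0.14. In those groups Phactr1 probe A, Wfdc3 and Cysrt1 were detected in 0 of 28 arrays and Mfsd2a in 4, so apart from Tmem86a these say that no signal above background was read in most arrays. Estradiol changed 10.2% of all tested probes without Sry and 10.1% with Sry, and 0.813% differed in their response between these lines. On the 2 slides that held all 8 groups concerned, every one of the 7 probes was higher with estradiol in both XX and XY-, by 0.37 to 3.80, and with Sry the differences ran from -0.85 to 1.46. These arrays are among those that chose the genes, so this is a description and no replication. The share of all tested probes with the same behaviour was not computed.

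**Figure D2:**
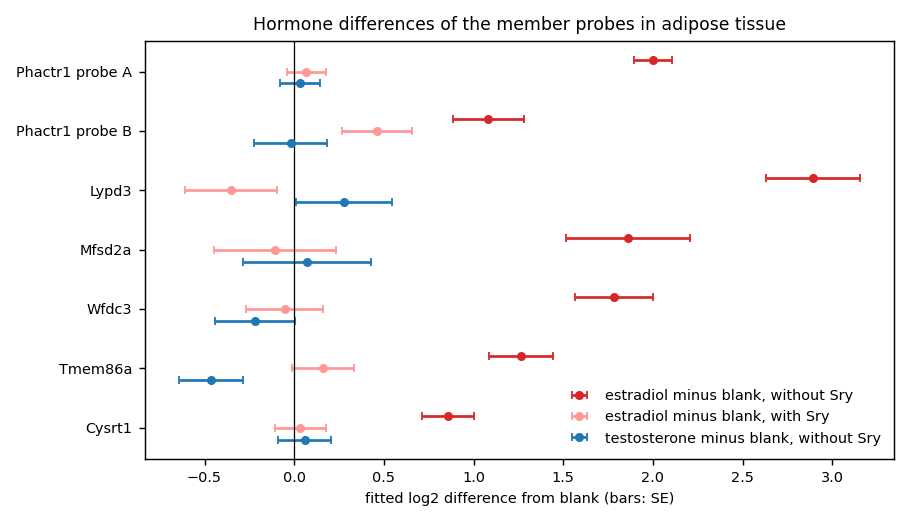
Fitted log2 difference from blank (x axis, bars are SE) for the 7 tested member probes in adipose tissue (y axis). Estradiol without Sry is red, estradiol with Sry is pale red and testosterone without Sry is blue. The estradiol differences without Sry run from 0.85 to 2.89, and those with Sry from -0.35 to 0.46.

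Whether the sex chromosomes mattered within the estradiol-treated mice of this line was tested next, with contrasts that did not choose the genes. None of the 7 member probes differed between XX E and XY- E fat (limma, Benjamini-Hochberg adjusted p = 0.999 for each), where 0.0547% of all probes did. The largest difference was that of Tmem86a, -0.67 ± 0.23 (SE, 95% interval -1.13 to -0.20), with an unadjusted p of 0.00588 in the limma fit. It was lower in XX E on 4 of the 5 slides that hold both groups, by as much as 1.07, and 0.02 higher on the fifth. With array weights its difference was -0.73 with a limma adjusted p of 0.0306, the only call this contrast gave under any alternative. Lymph node genes averaged 9.74 ± 0.56 (SD, n = 5) in XY- E and 7.50 ± 2.55 in XX E fat, and skeletal muscle genes 10.31 ± 2.99 and 12.26 ± 2.28. Their part in the difference was not tested. For Phactr1 probe A the interval was -0.24 to 0.33, and for Lypd3 it was -0.46 to 0.92. The fit shares its estimate of the spread over all groups of the tissue. For probe A the SD was 0.29 in XX E and 0.39 in XY- E. In the other groups, none of them above background, it was 0.06 to 0.24, so the interval of probe A is too narrow. The SEs given for this probe in other contrasts share that estimate.

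Testosterone called none of the 7 probes in fat. Without Sry 0 of 7 were called (limma, 0.417% of all probes), with differences between -0.46 for Tmem86a (± 0.18 SE, adjusted p = 0.476) and 0.28 for Lypd3 (± 0.27, 0.983). With Sry 0 of 7 were called as well (limma, 3.55% of all probes), and the unadjusted p was under 0.05 for Tmem86a in both (0.0137 and 0.0220). Phactr1 probe A and Cysrt1 were not detected in any blank or testosterone array of fat, and Wfdc3 in 1, so these contrasts hold no information on those 3 probes. Lypd3 and Mfsd2a were detected in 12 and 4 of the 17 arrays without Sry, but in 3 and 4 of the 19 with Sry. Only Tmem86a and Phactr1 probe B were detected in most arrays of both. These contrasts share the blank arrays with the estradiol contrasts.

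**Figure D3:**
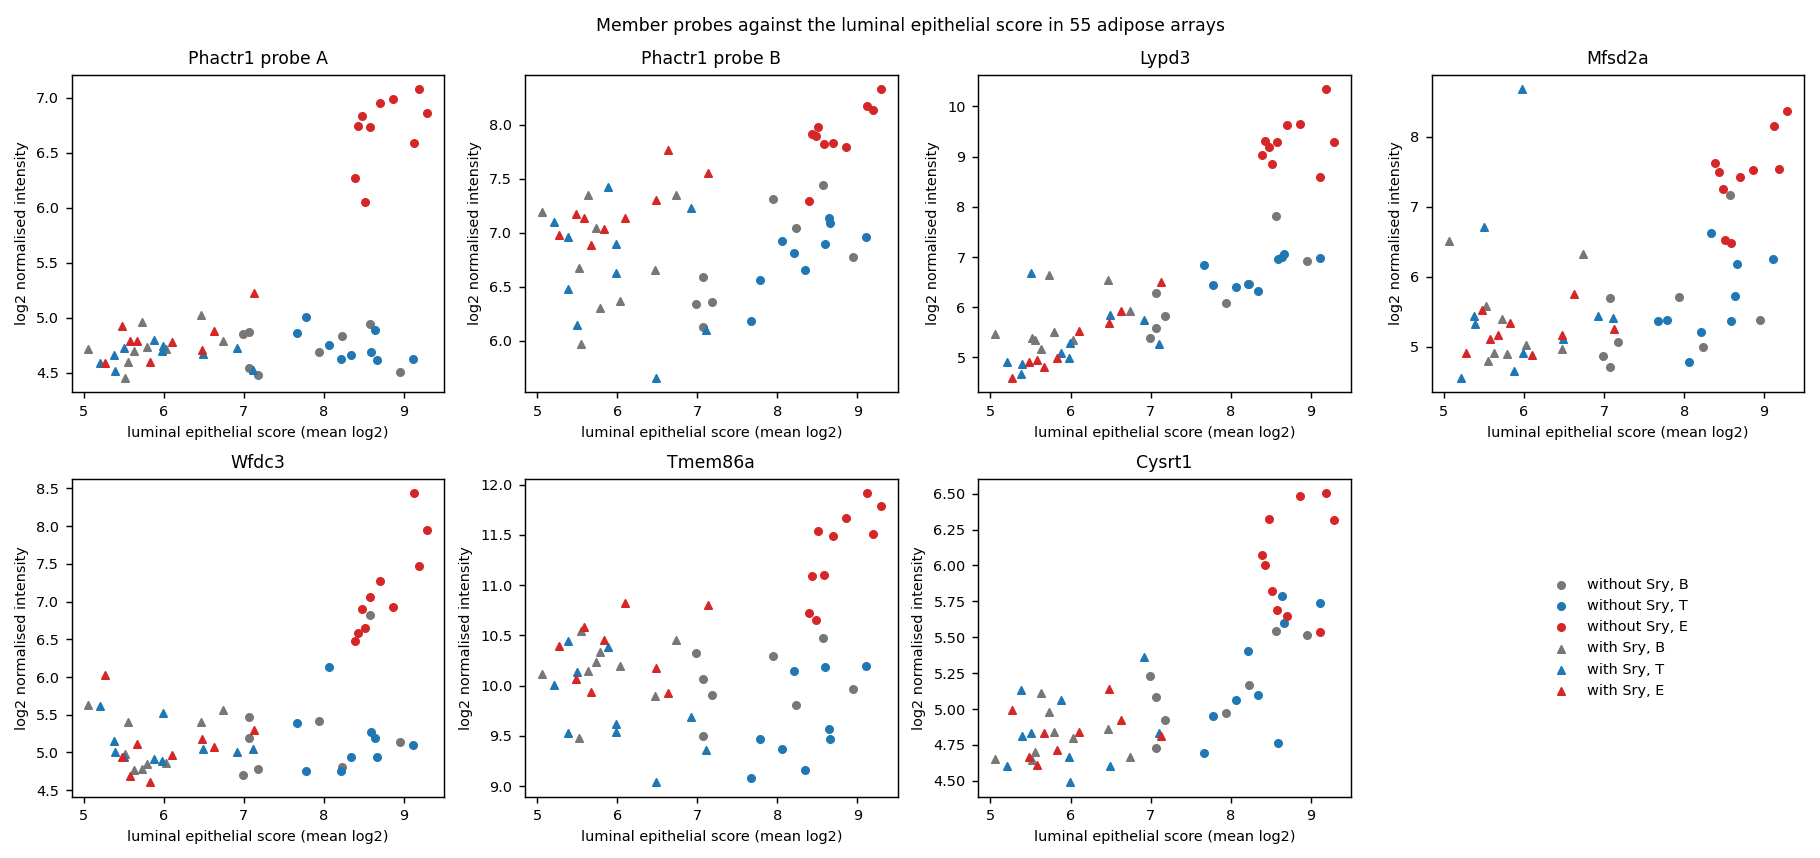
Log2 intensity of the 7 tested member probes (y axis) against the mean of 15 luminal epithelial genes (x axis) in 55 adipose arrays, with circles for groups without Sry, triangles for groups with Sry, and grey, blue and red for blank, testosterone and estradiol. Blank and testosterone arrays without Sry reach into the score range of the estradiol arrays and lie below them for Phactr1 probe A and Lypd3.

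Luminal epithelial genes, a marker list of 18 genes of which 15 were tested, had higher group means in fat without Sry than with it, a difference that was not tested. Their mean was between 7.31 and 8.90 in the 6 groups without Sry and between 5.61 and 6.36 in the 6 with Sry, and single arrays lay at 6.99 or higher without Sry and at 7.13 or lower with it. It was 8.61 ± 0.33 (SD, n = 5) in XX E, 8.49 ± 0.51 (n = 3) in XX B and 8.31 ± 0.25 (n = 4) in XX T, and 8.90 ± 0.32 in XY- E, 7.31 ± 0.52 in XY- B and 8.36 ± 0.62 in XY- T. XX B and XX T thus had scores close to XX E while Phactr1 probe A was at 4.71 and 4.73 in them, and in XY- mice the score was also lower with the blank capsule. Estradiol raised 7 of the 15 genes without Sry and lowered none (limma, 10.2% of all probes), with a median of 0.83 against -0.01 over all probes. The 7 were Krt19 (2.07), Krt8 (2.01), Krt7 (1.34), St14 (0.87), Muc1 (0.85), Spint1 (0.66) and Esrp1 (0.64). These values average the XX and XY- groups, whose means moved unequally, a contrast that was not tested. St14 went from 7.43 to 7.34 in XX and from 6.43 to 8.25 in XY-, and Esrp1 from 7.09 to 7.11 and from 5.76 to 7.02. Krt8 went from 10.97 to 11.92 in XX and from 9.38 to 12.46 in XY-. The smallest differences were those of Elf5 (0.22), Elf3 (0.24) and Cldn7 (0.31), which did not pass. The count fell to 4 without XY- B replicate 2, XY- E replicate 5, XX B replicate 2 or XX E replicate 2. With Sry 0 of 15 were called (median 0.11, 10.1% of all probes), and for the difference of the estradiol effect 0 of 15 were called (0.813% of all probes). The part of epithelial cells in the members' values was not tested.

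Within groups, members and score were compared after removing group means, which the choice of the genes did not use. Among the 10 arrays of XX E and XY- E, Wfdc3 (Pearson r = 0.823, Spearman rho = 0.832) and Tmem86a (r = 0.807, rho = 0.815) followed the score, with an adjusted p of 0.0365 for each r and 0.0507 for each rho by an exact permutation test over 14400 orders. Leaving out the 2 arrays farthest from the median score gave r = 0.879 and 0.644. With slide means removed as well, r was 0.863 and 0.831, with an adjusted p of 0.219 and 0.233 by exact permutation of the 5 slides. The 5 slides allow so few orders that these 2 relations could not pass after adjustment if only Lypd3 passed beside them. Their unadjusted p by that permutation of slides was 0.075 and 0.1, so neither was under 0.05 before adjustment. That setting therefore did not call them, and its few orders limit what it can decide. Lypd3 followed the score in the 28 arrays with Sry (r = 0.660, rho = 0.735, adjusted p = 0.00714 and 0.00084 by 100000 permutations), with r = 0.612 without the 2 farthest arrays. It was detected in only 4 of those 28 arrays, so most of these values are not above background. In the 17 blank and testosterone arrays without Sry, 12 of them detected, Lypd3 had r = 0.594 (adjusted p = 0.0606, 100000 permutations). In the 10 estradiol arrays, all detected, it had r = 0.482 (adjusted p = 0.338, exact permutation), and -0.189 without the 2 farthest arrays. The 3 relations called were among 21, computed over 7 probes and 3 sets of arrays. Tmem86a, detected in every array, had r = 0.255 (adjusted p = 0.501, 100000 permutations) in the 17 blank and testosterone arrays without Sry. In the 28 arrays with Sry it had r = -0.232 (adjusted p = 0.484, 100000 permutations), so its relation was called in the estradiol arrays alone. Phactr1 probe B had r = 0.692 in the estradiol arrays, 0.59 in the 17 and 0.115 in the 28, none of them called. Phactr1 probe A had r = 0.589 (adjusted p = 0.187, exact permutation) in the estradiol arrays, and outside them it was not detected, so that no relation is given there. When 1 estradiol array was left out, only the Lypd3 relation was called in 7 of 10 cases (XY- E replicate 1, 2 or 4, and XX E replicate 2, 3, 4 or 5). Among the members themselves, 20 of 21 pairs of probes had r above 0 in the estradiol arrays (median 0.40, from -0.08 to 0.75) and none passed after adjustment. The pairs reuse the same 7 probes, and the share for pairs of other probes was not computed, so the count has no baseline.

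Other lists were read in the same fit. Of 10 estrogen-responsive genes, 3 rose without Sry (limma, 10.2% of all probes), namely Areg, an EGF receptor ligand (4.57), Greb1, a growth regulator induced by estrogen (3.66), and Pgr, the progesterone receptor (1.27), and 2 fell, Cited1 by 1.98 and Wnt4 by 1.21. With Sry only Greb1 was called (2.93). Greb1 rose from 5.79 and 4.84 to 9.21 and 8.74 in XX and XY-, and from 5.16 and 5.66 to 8.39 and 8.30 in XXSry and XY-Sry. Areg was not called with Sry (-0.09), and its estradiol effect differed by -4.66 ± 0.64 (SE, limma adjusted p = 2.59e-06) between groups with and without Sry. That of Cited1 differed by 2.52 ± 0.29 (limma adjusted p = 4.46e-08), and the difference between lines was not called for Greb1 or Pgr. Of 9 tested genes of a list of RPEL proteins, actins, phosphatase 1 subunits and the transcription factor Srf, 0 were called with estradiol without Sry (median 0.12) and 0 with Sry (median -0.03). The largest and smallest differences without Sry were Ppp1cc (0.41), Actg1 (0.37), Mkl1 (0.26), Srf (-0.15), Phactr4 (-0.11) and Mkl2 (-0.02). Basal epithelial genes gave 2 calls of 6 without Sry, Trp63 (0.96) and Krt5 (0.83). Krt5 went from 7.41 to 7.36 in XX and from 6.29 to 8.0 in XY-. With Sry Trp63 fell by 0.86, and its estradiol effect differed between lines by -1.82 ± 0.33 (SE, limma adjusted p = 0.00055). Of 2 tested milk protein genes Wfdc18 rose (1.59) without Sry and Csn3 (0.63) did not pass. Of 7 adipocyte genes 1 was called without Sry, Lep, the hormone leptin, which fell by 1.24 and whose effect differed between lines by 1.54 ± 0.34 (SE, limma adjusted p = 0.00847). Adiponectin (Adipoq) was -0.23 and did not pass. None of the tested muscle, lymph node, liver or skin genes was called with estradiol in either line. These contrasts average XX and XY-, in which the mean of 5 muscle genes moved in opposite ways. It was 10.34 ± 0.64 (SD, n = 3) in XX B and 12.26 ± 2.28 (n = 5) in XX E. In XY- B it was 13.9 ± 0.42 (n = 5) and in XY- E 10.31 ± 2.99 (n = 5), and the part of muscle RNA in the members' values was not tested. The mean of 2 skin genes was 11.90 in XY- E replicate 1, 7.15 to 7.45 in the other XY- E arrays and 6.98 to 7.39 in XX E. That array was the highest of XY- E for Lypd3 (9.64), Phactr1 probe A (6.99) and Cysrt1 (6.48), but not for the other tested member probes. The skin mean was also 10.46 in XX T replicate 3, which had the highest Cysrt1 value (5.78) outside XX E and XY- E. The part of skin RNA in these values was not tested.

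The genes with the most similar pattern over the 12 adipose group means were named by Pearson r, as a description over means that share arrays with the choice of the genes. Those nearest to Phactr1 probe A were Tmprss11a (r = 0.992), Dnahc11 (0.991) and Ivl, an envelope protein of keratinocytes (0.986). For Lypd3 they were Col17a1, a hemidesmosome collagen (0.980), Rasgrf1 (0.977) and 9530077C05Rik (0.976). For Wfdc3 they were the probe listed as Ly64 (0.989), Bnc1 (0.982) and 4930403C10Rik (0.982), and for Cysrt1 Tuft1 (0.971) and Col17a1 (0.964). For Mfsd2a they were Nos3as (0.965), BC031593 (0.950) and Furin (0.949), for Tmem86a Isyna1, Abp1 and Gcnt1 (0.939 each), and for Phactr1 probe B Sh2bp1 (0.935), Dpep2 (0.930) and Tmed3 (0.929).

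In liver, 2 arrays stood against their labels and were kept. Over the 500 most variable probes XY- E replicate 5 correlated at 0.885 with the mean of the XY- T arrays and at -0.66 with the other XY- E arrays, where the other 4 XY- E arrays lay between -0.661 and -0.26 and between 0.216 and 0.507. In XY-Sry T replicate 5 the Y-linked gene Eif2s3y was within the range of the XX arrays, and that array enters the comparisons given here through the shared estimate of the spread alone. Only Mfsd2a and Tmem86a were detected in enough arrays to be tested, both in 60 of 60. Lypd3, Cysrt1 and Phactr1 probes A and C were detected in 0 of 60, Phactr1 probe B in 2 and Wfdc3 in 3, one of which, XY- E replicate 2, read 9.08. Estradiol raised Tmem86a without Sry by 0.71 ± 0.16 (SE, limma adjusted p = 0.00742), 1 of 2 member probes where 2.47% of all probes were called. Its level was 8.51, 8.50, 8.45, 8.53 and 8.31 in XX E against 7.28, 7.44, 7.61, 7.02 and 7.86 in XX B, with no overlap. In XY- E it was 7.95, 8.99, 7.77, 8.14 and 7.48 against 8.01, 7.13, 7.70, 7.61 and 7.92 in XY- B, which overlapped. With median centring the difference was 0.42 and its limma adjusted p 0.255. With Sry the difference was 0.41 ± 0.16 (limma adjusted p = 0.223, 1.78% of all probes), and the effect did not pass a test of difference between groups with and without Sry (-0.30 ± 0.23, limma adjusted p = 0.969, 0.0795% of all probes), whose interval was -0.75 to 0.15. Mfsd2a differed by 0.25 ± 0.36 without Sry and 0.20 ± 0.36 with Sry and was not called. Without XY- E replicate 5 the call of Tmem86a held (0.78, limma adjusted p = 0.00197), Mfsd2a differed by 0.24 and 0 of 2 probes were called for the difference between lines.

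**Figure D4:**
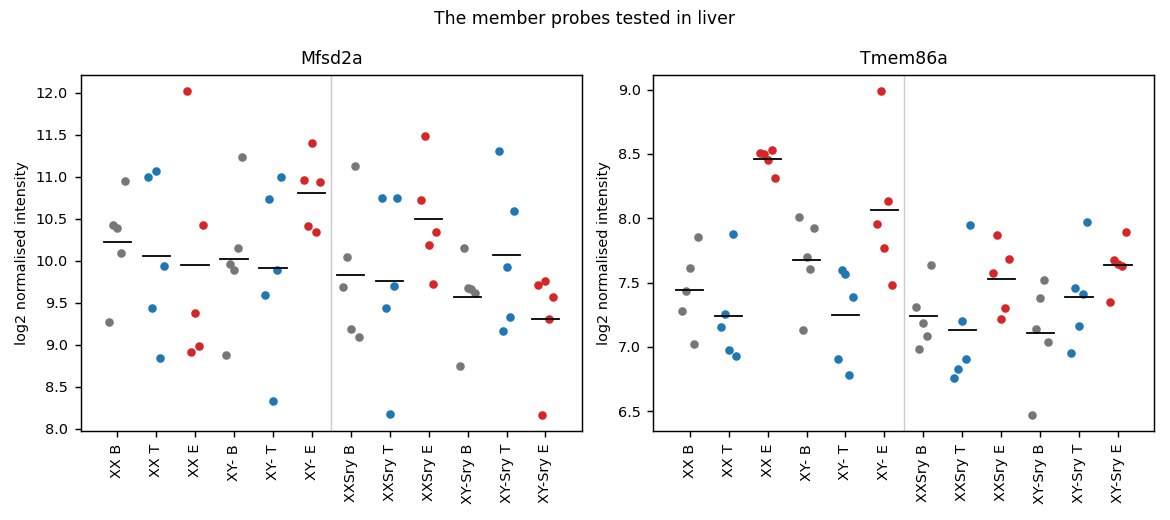
Log2 normalised intensity of Mfsd2a and Tmem86a (y axis) in each liver array by group (x axis), in the colours of blank (grey), testosterone (blue) and estradiol (red), with group means as black bars. The 5 XX E arrays of Tmem86a lie between 8.31 and 8.53, above all XX B arrays.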

How the data were processed

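RNA of liver and inguinal adipose tissue was measured on Illumina BeadChips. Per the file headers, the deposited tables hold linear bead intensities (1 mean per probe and array) and the matching detection p-values. The submitters' processing notes name lumi, with no role or version. The array type and genome build are not given in the sources used here. A further 115 columns of bead standard errors were not used.

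The tissues were handled apart, with limma 3.58.1 (R 4.3.3): normexp background correction with negative controls inferred from the deposited detection p-values, an offset of 16, quantile normalisation and log2. Probes entered the tests when the detection p was under 0.01 on 3 or more adipose arrays or 5 or more liver arrays, the size of the smallest group. lmFit and eBayes fitted a mean per group, and a probe is called at a Benjamini-Hochberg adjusted p under 0.05 over all tested probes of a contrast. Arrays were grouped by their labels, and replicate numbers only name an array. Relations within groups used permutation tests (Python 3.11.15, numpy 2.4.6). The scripts were tested on simulated data. The number of arrays limits precision.

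The members and gene lists were chosen with earlier results of these data known. Named genes are the members, the 3 nearest in pattern to each tested probe (1 is not reported here), and from each list the called genes or the largest and smallest differences, with Greb1 and Pgr. Current symbols come from the RefSeq table of GRCm38.p6, through which 24629 of 25697 probes were matched. Alternatives covered the normalisation, background, offset, probe filter, slide, array weights, the array with conflicting labels and single arrays.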

Additional observations from a re-analysis of the deposited data

Results flagged for a closer look

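Over 101 sets of 4 or 5 arrays, 3 had a highest or lowest value that stood apart from the others by Dixon's test at the 95% level, which chance gives in about 5% of groups. In adipose XX E, Lypd3 in replicate 2 was 10.35 where the other arrays lay between 9.04 and 9.31. In adipose XY-Sry B, Mfsd2a in replicate 2 was 6.33, against 4.80 to 5.03. In liver XY-Sry E, Mfsd2a in replicate 2 was 8.16, against 9.30 to 9.76.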

How the results depend on the processing

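No paired analysis was possible because the labels give no replicate numbers. Slide was fitted as a block instead, which changed no count of called members. The counts of 0 members called for XX E against XY- E fat and for testosterone without Sry were also 0 when each array in turn was left out, and under the other alternatives except array weights, which called 1 member for XX E against XY- E. The liver count of 1 fell to 0 with median centring and stayed at 1 without any single array. The luminal list gave 5 to 7 calls under the alternatives for processing and 4 to 7 without single arrays. The 3 relations within groups became 9 with median centring, 2 of them inverse (Phactr1 probe A with r = -0.694 and Wfdc3 with r = -0.577, in blank and testosterone arrays without Sry, where they were mostly not detected), 1 with no background correction, 1 with slide means removed and 0 with Krt18 alone as the score, which was chosen after seeing the data because Epcam has no probe in the table used and was not run. They were 1 to 3 without single estradiol arrays. The cause of these changes was not tested. With slide means removed, the 5 slides gave too few orders for Wfdc3 and Tmem86a to pass beside Lypd3 alone. Their unadjusted p by permutation of the slides was 0.075 and 0.1. Without background correction the estradiol differences without Sry were smaller, 0.76 for Phactr1 probe A, 1.81 for Lypd3, 0.80 for Mfsd2a, 0.72 for Wfdc3, 0.28 for Cysrt1 and 0.60 for Phactr1 probe B, and with an offset of 50 they were 1.21 for Phactr1 probe A, 1.21 for Wfdc3 and 0.51 for Cysrt1. Taking XX E replicate 1 as testosterone, an alternative for these differences chosen after seeing the data, left that of Phactr1 probe A at 2.0 and that of Lypd3 at 2.91. Dim probes limit what Cysrt1 and Phactr1 probe C can show.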
